A study of Mus musculus with 15 samples.

Results

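The 9 genes described here code for the adult globin chains of haemoglobin and for enzymes that make its haem group. They are the listed alpha-globin genes Hba-a1 and Hba-a2, the beta-globin genes Hbb-bs and Hbb-bt, and 5 haem synthesis enzyme genes, Alas2, Alad, Urod, Cpox and Fech. They were taken by name from a table of 44827 gene rows, by a rule that uses no measured value but was written with earlier results of these data known. All 9 have a row and all 9 passed the filter on low values of at least 1 CPM (read counts scaled to a common library size) in at least 3 libraries, which 13927 genes passed. Hba-a2 passed through the 3 leukemic libraries and WT library 1, its only values above 1 CPM.

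RNA was sequenced from LSK cells, bone marrow cells sorted as lineage-negative, Sca1-positive and cKit-positive, a gate that holds blood stem cells and early progenitors. There were 5 groups of 3 libraries from C57BL/6 mice: leukemic Tet2-/- Nras(G12D) double mutants, Tet2-/- Nras(G12D) double mutants without leukemia, Tet2-/- mice, Nras(G12D) mice, and wild-type (WT) mice. The alleles were conditional and specific to haematopoietic cells, and the Cre driver is not given in the sources used here. An age of 6 months is named only for the animals of the methylome experiment. Only the leukemic libraries carry the added label BMT, so leukemia and whatever that label stands for cannot be told apart. Marrow from femurs, tibiae and iliac crests was depleted of red cells by lysis before the sort. Whether the 3 libraries of a group are 3 mice is not stated, and sex is not in the labels. The mean log2 CPM of the Y-linked genes Ddx3y, Eif2s3y, Kdm5d and Uty was above 0 in 1 of 3 leukemic libraries (library 1). It was above 0 in 1 of 3 double mutant, 2 of 3 Tet2-/-, 1 of 3 Nras(G12D) and 0 of 3 WT libraries. The libraries of a mutant group were therefore not all from 1 mouse, and sex was not balanced between WT and mutant groups. The p-values reflect library-to-library spread, which may be technical in part.

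Haemoglobin is a tetramer of paired alpha and beta chains, each holding a haem. Haem synthesis begins in the mitochondrion with the condensation of glycine and succinyl-CoA by an aminolaevulinate synthase, Alas2 in red cell precursors and Alas1 in other cells. It runs through the cytosol with Alad, Uros and Urod among others, and returns to the mitochondrion with Cpox, Ppox and Fech, the ferrochelatase that inserts iron. Every nucleated cell needs some haem, for cytochromes for example, whereas globin transcripts and Alas2 mark cells that are forming red cells.

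The globin genes lie in 2 clusters, given here in GRCm38 with the GENCODE annotation. Hba-a1 is at chr11:32283511-32284465 and Hba-a2 at chr11:32296489-32297298, both on the plus strand. Hbb-bs is at chr7:103826534-103828096 and Hbb-bt at chr7:103812524-103813996, both on the minus strand. Alas2 is X-linked (chrX:150547375-150570638, plus strand). Alad (chr4:62509169-62519918) and Urod (chr4:116989965-116994413) are both on the minus strand of chromosome 4, Cpox is at chr16:58670292-58717636 on the plus strand. All 9 genes are annotated as protein-coding.

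To set globin and haem genes beside each other as sequence, 4 promoters from the RefSeq promoter table (GRCm38.p6) are shown, each 5′ to 3′ on the gene's own strand. They are an alpha-globin gene and Alas2, both made in red cell precursors, and 2 enzyme genes of the general pathway that behaved differently, Cpox and Urod. Each begins at position -220 from the RefSeq start site and ends before any annotated transcript start, so that the Alas2 stretch stops at position -43. Capitals mark, on either strand, the GATA motif (GATAA or GATAG preceded by A or by T), the CACCC motif and the CCAAT motif.
Hba-a2, chr11:32296272-32296488, plus strand: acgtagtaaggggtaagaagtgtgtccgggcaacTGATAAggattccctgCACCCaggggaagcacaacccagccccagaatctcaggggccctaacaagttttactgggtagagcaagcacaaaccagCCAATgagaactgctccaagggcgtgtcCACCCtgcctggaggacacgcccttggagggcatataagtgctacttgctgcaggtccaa
Alas2, chrX:150547197-150547374, plus strand: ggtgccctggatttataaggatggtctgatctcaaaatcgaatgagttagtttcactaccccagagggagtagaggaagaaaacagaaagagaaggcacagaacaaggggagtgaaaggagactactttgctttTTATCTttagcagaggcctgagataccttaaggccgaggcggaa
Cpox, chr16:58669988-58670207, plus strand: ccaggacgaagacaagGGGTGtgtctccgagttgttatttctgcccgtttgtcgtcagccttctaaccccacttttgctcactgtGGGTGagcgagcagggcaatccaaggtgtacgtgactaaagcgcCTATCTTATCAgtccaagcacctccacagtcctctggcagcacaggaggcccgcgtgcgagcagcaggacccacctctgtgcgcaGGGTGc
Urod, chr4:116994414-116994633, minus strand: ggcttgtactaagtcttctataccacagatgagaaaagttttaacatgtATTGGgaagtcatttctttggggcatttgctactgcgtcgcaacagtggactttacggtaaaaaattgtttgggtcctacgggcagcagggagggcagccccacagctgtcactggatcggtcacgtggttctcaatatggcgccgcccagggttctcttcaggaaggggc
GATA motifs are the binding sequence of Gata1, CACCC that of Klf1 and related factors, and CCAAT that of the NF-Y complex. Of the 8 genes with an entry in the promoter table, 5 had a GATA motif within 250 bases before the start site (Hba-a1, Hba-a2, Hbb-bs, Alas2 and Cpox), beside 26.5% of all 32851 promoters in that table. A CACCC motif was present in 7 of the 8, beside 52% of all promoters, and a CCAAT motif in 6 of the 8, beside 33.8%. The 3 CACCC matches of Alas2, at positions -40, -35 and -30, lie beyond the end of the printed stretch. The Cpox promoter holds 2 GATA matches on the minus strand that overlap by 1 base, CTATCTTATCA as printed above, and the Urod promoter holds none. These matches are letters in a window and not tested sites.

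The libraries held 22733189 to 43562909 counts, and 3 counts, taken as the floor of detection, corresponded to 0.0775 to 0.127 CPM. Genotypes are used as labelled, since the gene-level count of Tet2 does not report which exons were read: Tet2 stood at 35.9 to 59.8 CPM in Tet2-/- libraries and 50.7 to 65.2 CPM in WT libraries (log2 change -0.31 ± 0.31, SE, limma adjusted p = 0.549). On principal component 1, with 42% of the variance, the 3 leukemic libraries lay at -51.6, -147 and -114 and the other 12 at -22.6 to 105. Changes below are differences of mean log2 CPM, with 0.5 added to each count, and ± their standard error. A gene is called changed at an adjusted p below 0.05 from a limma fit over all 13927 tested genes. In bulk RNA, fewer cells of a type and less RNA per cell cannot be told apart.

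Globin transcripts were rare in the LSK cells of every non-leukemic group and more abundant in every leukemic library, though to widely different degrees. The 4 globin genes summed to 42.7, 596 and 70.5 CPM in leukemic libraries 1, 2 and 3, against 3.01, 4.31 and 1.65 CPM in double mutant libraries. The sums were 7.01, 4.41 and 3.57 CPM in Tet2-/- libraries, 15.1, 2.09 and 7.31 CPM in Nras(G12D) libraries, and 29.1, 14.8 and 12.4 CPM in WT libraries. Every leukemic library lay above every other library, library 2 by far the most, and the double mutant and Tet2-/- libraries all lay below the lowest WT library.

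**Figure D1:**
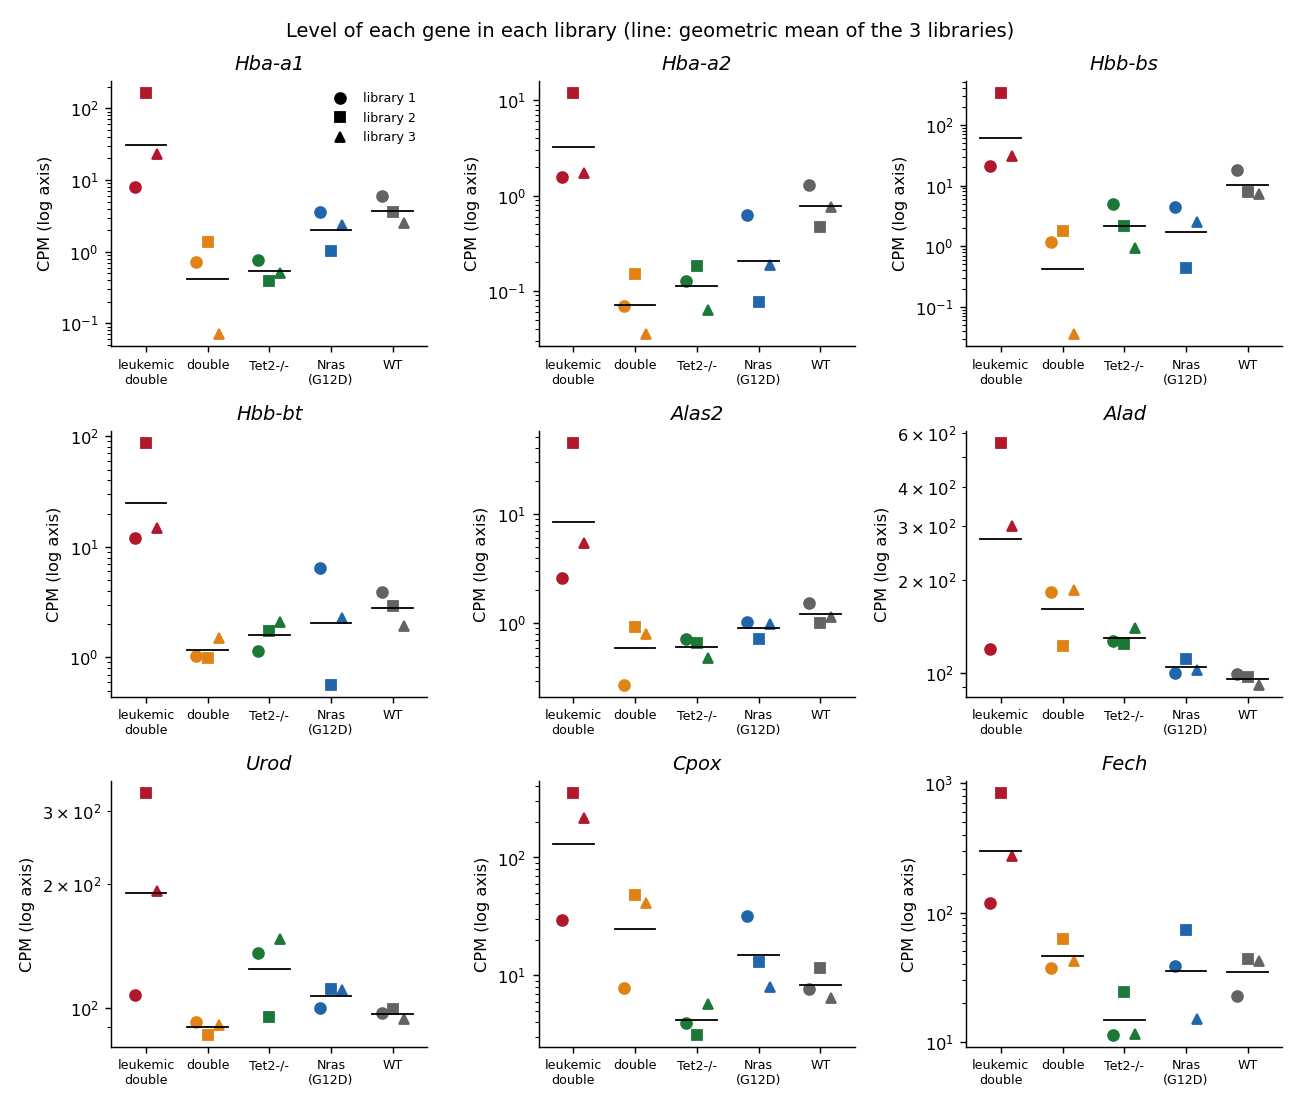
Level of each of the 9 genes in each library, in CPM on a log axis, with groups along the horizontal axis from leukemic double mutant to WT; each marker shape is a library number and each bar the geometric mean of 3 libraries. By standard deviation of log2 values the leukemic libraries spread widest, except for Hbb-bs (widest in double mutant) and Hbb-bt (widest in Nras(G12D)). Leukemic library 2 is on top for every gene, while Alad and Urod stay within a narrow band in the other groups.

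Hba-a1, which codes for an alpha chain, had 7.93, 163 and 22.9 CPM in leukemic libraries and 0.726, 1.39 and 0.0702 CPM in double mutant libraries, the last on 2 counts, below the floor of 3. It had 0.765, 0.393 and 0.510 CPM in Tet2-/- libraries, 3.62, 1.01 and 2.32 CPM in Nras(G12D) libraries and 5.95, 3.56 and 2.49 CPM in WT libraries. The leukemic values did not overlap with any other group, and the Tet2-/- and double mutant values all lay below WT.

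Hba-a2, the neighbouring alpha-globin gene, was lower throughout, also per kilobase, with 1.58, 11.9 and 1.75 CPM in leukemic libraries. It had 2, 5 and 1 counts in double mutant libraries and 3, 6 and 2 counts in Tet2-/- libraries, at or near the floor of 3 counts. Nras(G12D) libraries had 17, 3 and 6 counts of it, and WT libraries 34, 12 and 21 counts. Its fitted changes against the double mutant and Tet2-/- groups therefore depend on the 0.5 added to each count.

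Hbb-bs, a beta-globin gene, had 21.1, 334 and 31.1 CPM in leukemic libraries and 1.18, 1.78 and 0.0351 CPM in double mutant libraries, the last a single count. It had 4.97, 2.11 and 0.925 CPM in Tet2-/- libraries, 4.39, 0.439 and 2.51 CPM in Nras(G12D) libraries and 17.9, 7.86 and 7.21 CPM in WT libraries. WT values lay above all 9 values of the 3 non-leukemic mutant groups.

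Hbb-bt, the other adult beta-globin gene of this strain, had 12, 86.5 and 14.7 CPM in leukemic libraries and 1.04, 0.995 and 1.51 CPM in double mutant libraries. It had 1.15, 1.72 and 2.07 CPM in Tet2-/- libraries, 6.46, 0.568 and 2.29 CPM in Nras(G12D) libraries and 3.93, 2.93 and 1.94 CPM in WT libraries. Outside leukemia its level depended less on the group than that of Hbb-bs, and the Tet2-/- and Nras(G12D) ranges overlapped with WT.

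The members of each globin pair are almost the same sequence. The coding sequences of Hba-a1 and Hba-a2 differ at 1 of 426 bases and code for the same 142 residues, and those of Hbb-bs and Hbb-bt differ at 1 of 441 bases and code for the same 147 residues. Of all 50-base stretches of coding sequence, 87.8% are shared within the alpha pair and 93.6% within the beta pair, so how reads were split between partners is uncertain and the counting step is not given in the sources used here. The ratio of Hbb-bs to Hbb-bt counts averaged 2.58 ± 1.13 in leukemic, 0.981 ± 0.892 in double mutant, 2.0 ± 2.06 in Tet2-/-, 0.849 ± 0.218 in Nras(G12D) and 3.65 ± 0.943 in WT libraries (SD, n = 3 each). It spanned 0.0233 in double mutant library 3, on a single Hbb-bs count, to 4.56 in WT library 1. Summed over each pair, the leukemic change from WT was 2.91 ± 0.98 for alpha-globin (limma adjusted p = 0.0434) and 2.74 ± 0.88 for beta-globin (limma adjusted p = 0.0366).

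Alas2, the red cell form of the enzyme that starts haem synthesis, had 2.57, 44.3 and 5.42 CPM in leukemic libraries and 0.277, 0.935 and 0.808 CPM in double mutant libraries. It had 0.722, 0.664 and 0.479 CPM in Tet2-/- libraries, 1.03, 0.723 and 0.991 CPM in Nras(G12D) libraries and 1.52, 1.02 and 1.14 CPM in WT libraries. Outside leukemia all 12 values lay between 8 and 40 counts, well above the floor, and only the leukemic group stood apart from WT on the higher side.

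Alas1, the form used in all other tissues, did not pass the test in any of the comparisons with WT. It had 174, 191 and 220 CPM in leukemic libraries, 162, 153 and 141 CPM in double mutant libraries, 194, 194 and 266 CPM in Tet2-/- libraries, 123, 156 and 198 CPM in Nras(G12D) libraries and 167, 175 and 199 CPM in WT libraries. Per kilobase it averaged 57.4 CPM in leukemic, 44.7 in double mutant and 64.1 in Tet2-/- libraries, beside 8.55, 0.330 and 0.305 for Alas2. The log2 ratio of Alas2 to Alas1 CPM, not corrected for length, averaged -4.51 ± 2.11 in leukemic, -7.95 ± 1.0 in double mutant, -8.42 ± 0.57 in Tet2-/-, -7.41 ± 0.46 in Nras(G12D) and -7.20 ± 0.38 in WT libraries (SD, n = 3 each). The ratio was highest in leukemic library 2, at -2.11, and still below 0 there.

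Alad, the enzyme that joins a pair of aminolaevulinate molecules into porphobilinogen, was abundant in every group. It had 119, 556 and 300 CPM in leukemic libraries, 183, 122 and 186 CPM in double mutant libraries, 127, 124 and 139 CPM in Tet2-/- libraries, 99.7, 110 and 102 CPM in Nras(G12D) libraries and 98.7, 96.8 and 91.5 CPM in WT libraries. All 12 mutant libraries lay above all 3 WT libraries, and leukemic library 1 lay below every double mutant library.

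Urod, which trims the side chains of uroporphyrinogen, had the narrowest range of the 9 genes over the 12 non-leukemic libraries on the log scale. It had 107, 332 and 192 CPM in leukemic libraries, 92.2, 86.0 and 91.0 CPM in double mutant libraries, 136, 95.1 and 147 CPM in Tet2-/- libraries, 99.6, 111 and 110 CPM in Nras(G12D) libraries and 96.9, 99.1 and 93.8 CPM in WT libraries. The double mutant values fell just under the WT values and the leukemic values above them, without overlap on either side.

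Cpox, the coproporphyrinogen oxidase of the mitochondrial intermembrane space, varied widely. It had 29.3, 350 and 217 CPM in leukemic libraries and 7.78, 48.4 and 40.8 CPM in double mutant libraries. It had 3.95, 3.14 and 5.74 CPM in Tet2-/- libraries, 31.7, 12.9 and 7.96 CPM in Nras(G12D) libraries and 7.74, 11.6 and 6.44 CPM in WT libraries. The Tet2-/- values lay below those of every other group, and leukemic library 1 lay within the double mutant range.

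Fech, the ferrochelatase, had 118, 835 and 275 CPM in leukemic libraries and 37.4, 62.3 and 41.8 CPM in double mutant libraries. It had 11.3, 24.4 and 11.6 CPM in Tet2-/- libraries, 38.7, 73.3 and 15.1 CPM in Nras(G12D) libraries and 22.7, 43.9 and 42.2 CPM in WT libraries. As with Cpox, the Tet2-/- group held the lowest values and the leukemic group the highest, although Tet2-/- library 2 overlapped with WT.

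Levels can be compared between genes only per length, here as mean CPM per kilobase of the principal annotated transcript. In WT libraries the order was Alad at 76.7, Urod at 64.9, Hbb-bs at 17.5, Hba-a1 at 5.72, Fech at 5.52, Hbb-bt at 4.17, Cpox at 2.77, Hba-a2 at 1.52 and Alas2 at 0.602. From Hba-a1 down to Cpox, neighbours in this order lay within the standard deviation of their libraries. In leukemic libraries the order was Alad at 261, Hbb-bs at 205, Urod at 141, Hba-a1 at 92.6, Cpox at 64.1, Fech at 62.3, Hbb-bt at 53.7, Hba-a2 at 9.15 and Alas2 at 8.55. Neighbours did not differ beyond their spread, with standard deviations such as 76.1 for Urod and 283 for Hbb-bs (n = 3 each). Alad and Urod also led in the other groups, at 131 and 60.3 in double mutant libraries, 104 and 84.6 in Tet2-/- libraries, and 83.5 and 71.9 in Nras(G12D) libraries. Next to them came Cpox at 10.4 in double mutant, Hbb-bs at 4.25 in Tet2-/- and Fech at 6.45 in Nras(G12D) libraries.

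**Figure D2:**
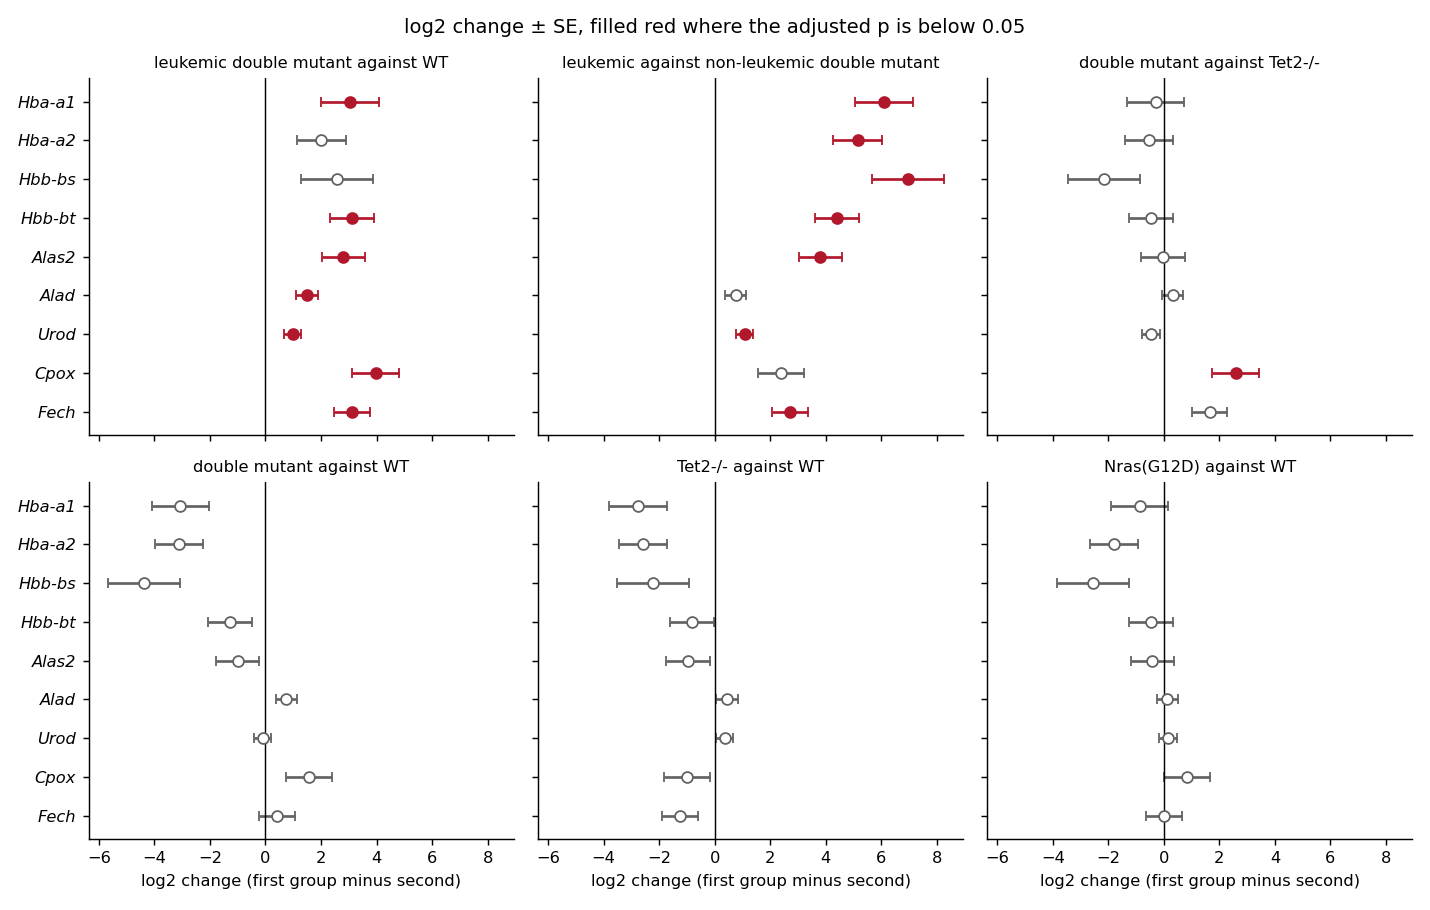
Log2 change of each of the 9 genes in 6 comparisons, with bars of 1 standard error from limma; filled red points mark an adjusted p below 0.05. Calls cluster in the comparisons of leukemic libraries with WT and with double mutant libraries, with 7 genes each, and the only other call is Cpox in double mutant against Tet2-/-.

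The comparison of leukemic double mutants with WT asked how far the globin and haem genes of LSK cells depart from normal once leukemia is present. Of the 9 genes, 7 rose and none fell, in a comparison in which limma called 24.7% of all tested genes and 10.8% as higher. The calls over all genes were 43.7% higher, and 25.7% higher when libraries were scaled by total counts. Cpox rose by 3.97 ± 0.83 (adjusted p = 0.0064) and Fech by 3.11 ± 0.64 (adjusted p = 0.00592). Hbb-bt rose by 3.13 ± 0.79 (adjusted p = 0.0131), Hba-a1 by 3.04 ± 1.03 (adjusted p = 0.0453), Alas2 by 2.80 ± 0.78 (adjusted p = 0.0201), Alad by 1.5 ± 0.39 (adjusted p = 0.0144) and Urod by 0.98 ± 0.31 (adjusted p = 0.0341). Hba-a2 and Hbb-bs missed the threshold of the limma test, at 2.02 ± 0.87 (adjusted p = 0.1) and 2.58 ± 1.29 (adjusted p = 0.152). All 3 leukemic libraries lay above all 3 WT libraries for all 9 genes, which was so for 24% of all tested genes. The median change of the 9 genes was 2.80, beside 0.00 over all tested genes.

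These calls leaned on single libraries. Without leukemic library 2, only Cpox and Fech were called (10.5% of all genes were), and the same pair was left without WT library 3 (11.7%). Without leukemic library 3, 4 genes were called, namely Hbb-bt, Alas2, Cpox and Fech (13.3% of all genes were). Without WT library 1 or 2 the 4 were Hbb-bt, Alad, Cpox and Fech (9.74% and 16.8% of all genes). Without leukemic library 1, the 7 calls were the same genes, at 37.7% of all genes. The change of Hba-a1 ranged from 1.84 to 4.02 over these fits and that of Alas2 from 1.61 to 3.66. All 9 changes stayed above 0 in every such fit.

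**Figure D3:**
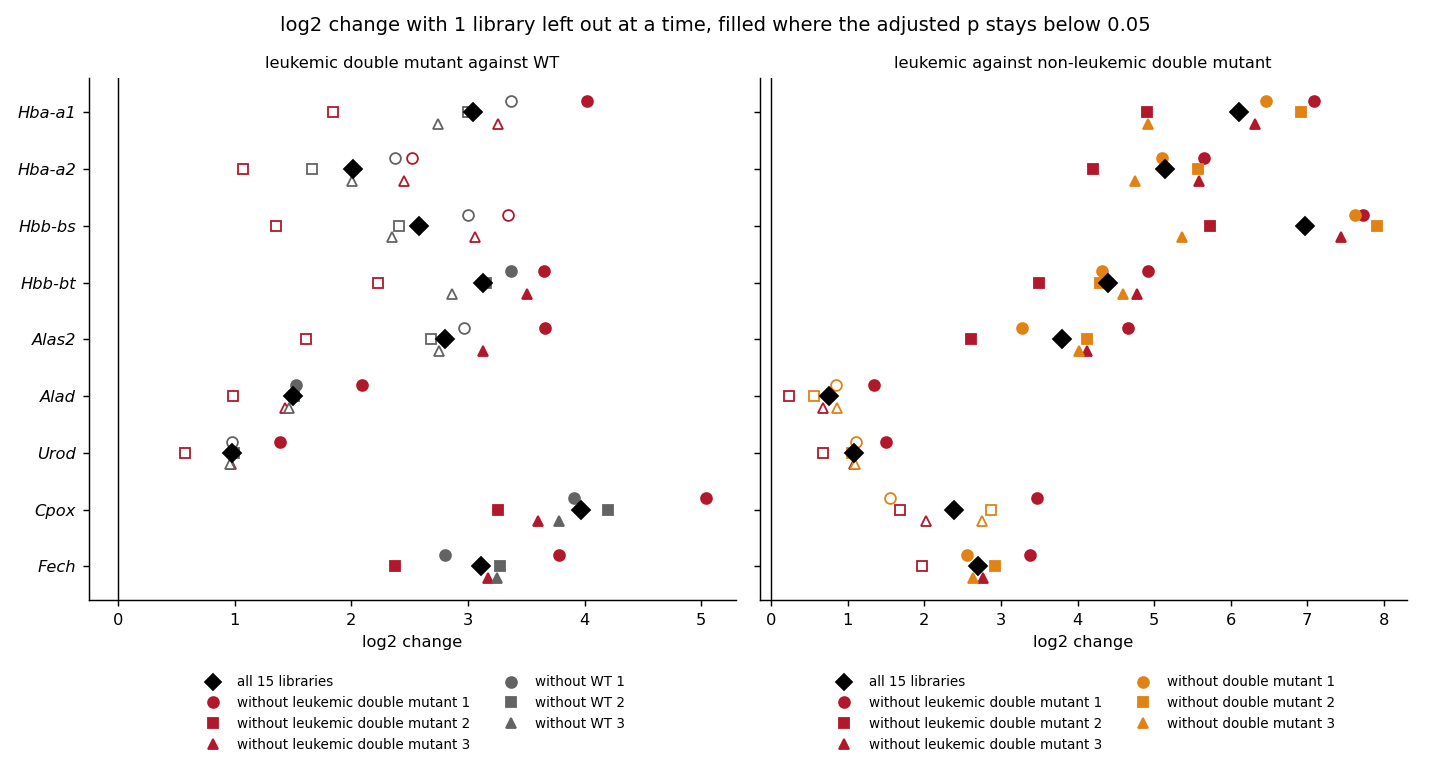
Log2 change of each gene in leukemic libraries against WT and against non-leukemic double mutant libraries, with each library of the compared groups left out in turn; filled symbols have a limma adjusted p below 0.05. Leaving out leukemic library 2 gave the smallest changes and leaving out leukemic library 1 the largest for most genes, and Cpox and Fech were the only genes called against WT in all of these fits.

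The comparison of leukemic with non-leukemic double mutants holds the genotype label constant. The globin genes differed most here: Hbb-bs rose by 6.97 ± 1.29 (limma adjusted p = 0.00405), Hba-a1 by 6.10 ± 1.03 (adjusted p = 0.00308), Hba-a2 by 5.15 ± 0.87 (adjusted p = 0.00303) and Hbb-bt by 4.40 ± 0.79 (adjusted p = 0.00373). The first 3 of these changes include double mutant values below the floor of 3 counts and depend on the 0.5 added to each count. The change of Hbb-bs also depends on the uncertain split of reads, with 1 count of Hbb-bs and 43 of Hbb-bt in double mutant library 3. Summed over the pair, beta-globin stood at 33.2, 421 and 45.8 CPM in leukemic libraries and 2.21, 2.77 and 1.54 CPM in double mutant libraries. Alas2 rose by 3.80 ± 0.78 (limma adjusted p = 0.00588), Fech by 2.70 ± 0.64 (adjusted p = 0.0106) and Urod by 1.08 ± 0.31 (adjusted p = 0.0228). Cpox, at 2.39 ± 0.83 (limma adjusted p = 0.0502), and Alad, at 0.75 ± 0.39 (adjusted p = 0.167), were not called, and their ranges overlapped. The 7 genes called stood beside 24.3% of all tested genes called and 9.04% called higher, and all 7 had non-overlapping libraries, as did 19.7% of all genes on the higher side. The calls over all genes were 37.2% higher, against 21% with scaling by total counts and 48.4% after quantile normalization. The median change of the 9 genes was 3.80, beside -0.10 over all tested genes.

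With leukemic library 2 left out, the 4 globin genes and Alas2 were called and Urod and Fech were not, at 8.51% of all genes called. Without leukemic library 3, or without any of the 3 double mutant libraries, 6 genes were called, Urod being lost each time. The shares of all genes called were 13% without leukemic library 3 and 16.5%, 12.1% and 11.3% without double mutant library 1, 2 and 3. Without leukemic library 1 all 9 were called, at 38% of all genes. The change of Hbb-bs in these fits ranged from 5.37 to 7.91, and it was 6.60 with 2 in place of 0.5 added to each count. Because this comparison and the one with WT share the leukemic libraries, they are not independent of each other.

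Markers of red cell precursors moved with the globins in leukemic libraries. The 10 erythroblast marker genes summed to 792 to 8726 CPM in leukemic libraries and 212 to 422 CPM in double mutant libraries. They summed to 299 to 628 CPM in Tet2-/-, 323 to 839 CPM in Nras(G12D) and 324 to 413 CPM in WT libraries. Nras(G12D) library 2, at 839 CPM, lay above leukemic library 1 at 792 CPM, but had 2.09 CPM of globins against 42.7 CPM. Of the 10, 7 rose in leukemic libraries against WT and 9 against double mutant libraries, by adjusted p of the limma fit, beside 10.8% and 9.04% of all tested genes called higher. Against WT the count was 2 without leukemic library 2 or 3 or WT library 1, and against double mutants it was 5 without leukemic library 2 or double mutant library 3. Slc4a1, the red cell anion exchanger, and Trim10 were at 0 in double mutant library 3. Marker genes of the sorted LSK population summed to 686 to 2812 CPM in leukemic libraries, 2835 to 3505 CPM in double mutant, 4419 to 5927 CPM in Tet2-/-, 2355 to 5314 CPM in Nras(G12D) and 3652 to 4179 CPM in WT libraries. Of these 9 stem and progenitor genes, 6 fell in leukemic libraries against WT, beside 13.9% of all tested genes called lower, and 2 had changes above 0. Those that fell included Hlf by 3.63, Procr by 3.48 and Cd34 by 1.96 on the log2 scale. The 6 became 3 without leukemic library 2 or 3 or WT library 1 or 3. The part of either marker set in the globin and haem result was not tested.

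**Figure D4:**
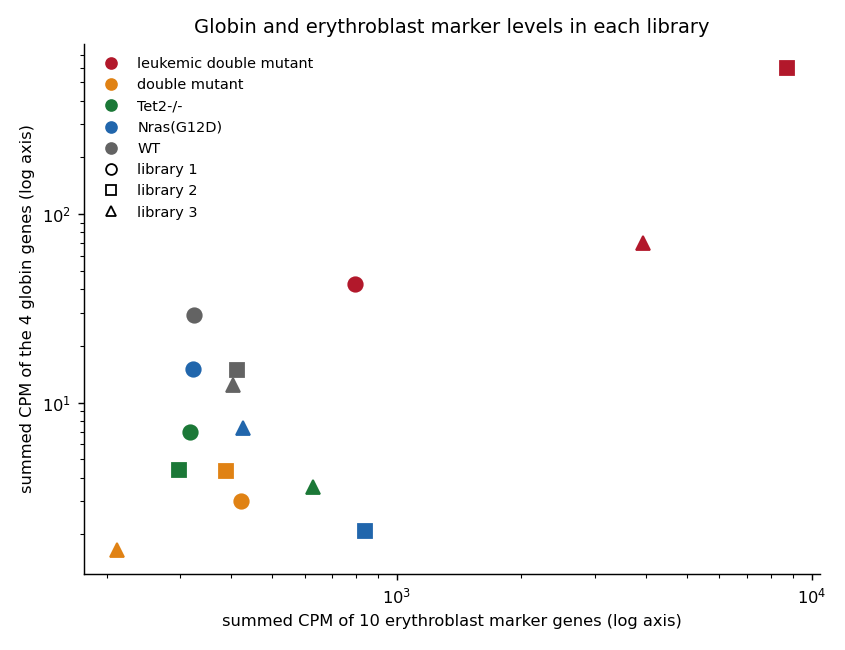
Summed CPM of the 4 globin genes against the summed CPM of 10 erythroblast marker genes in each of the 15 libraries, both on log axes. Leukemic library 2 is highest on both axes at 596 and 8726 CPM, while Tet2-/- libraries lie at 299 to 628 CPM and WT libraries at 324 to 413 CPM on the marker axis; gene by gene, 8 of the 10 markers had changes below 0 in Tet2-/- against WT, with a median of -1.94.

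Markers of other cell types were read in the same libraries. In leukemic libraries against WT, limma called 2 of 7 mast cell and basophil markers and 1 of 7 granulocyte-monocyte progenitor markers higher. It called 1 of 9 megakaryocyte and platelet, 1 of 6 B cell and 1 of 2 T cell markers lower, and none of 7 macrophage and 8 mature neutrophil markers. Over all tested genes 10.8% were called higher and 13.9% lower. The count for mast cell and basophil markers was 3 without leukemic library 2, 0 without WT library 3 and 1 without leukemic library 1 or 3 or WT library 1, and that for progenitor markers was 0 without WT library 1. The lower calls among megakaryocyte and platelet markers numbered 4 without leukemic library 1, and among B cell markers 2, and both counts were 0 without leukemic library 2 or WT library 1 or 3. Without leukemic library 1, 1 macrophage marker was called lower, and without leukemic library 2, 1 megakaryocyte and platelet marker was called higher. Mast cell and basophil markers summed to 102 to 269 CPM in leukemic libraries and 70.6 to 124 CPM in WT libraries, and progenitor markers to 3545 to 6364 CPM in leukemic and 3239 to 4471 CPM in WT libraries. Megakaryocyte and platelet markers summed to 139 to 893 CPM in leukemic and 303 to 395 CPM in WT libraries, and macrophage markers to 44.4 to 100.2 CPM in leukemic and 65.8 to 77.2 CPM in WT libraries. B cell markers summed to 14.6 to 37.6 CPM in leukemic and 51.2 to 71.8 CPM in WT libraries, and T cell markers to 2.09 to 6.30 CPM in leukemic and 6.42 to 6.92 CPM in WT libraries. Mature neutrophil markers reached 4044 CPM in Nras(G12D) library 2, which had the fewest globin counts of its group, and at most 428 CPM in any other library.

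In double mutants without leukemia the globin genes lay below WT, but no change passed the test. All 3 double mutant libraries lay below all 3 WT libraries for the 4 globin genes, Alas2 and Urod, as they did for 20.8% of all tested genes. The changes were -4.38 ± 1.29 for Hbb-bs (limma adjusted p = 0.111), -3.13 ± 0.87 for Hba-a2 (adjusted p = 0.1) and -3.06 ± 1.03 for Hba-a1 (adjusted p = 0.157). Summed over the pair, beta-globin stood at 2.21, 2.77 and 1.54 CPM in double mutant libraries and 21.8, 10.8 and 9.15 CPM in WT libraries. Limma called 0 of the 9 genes and 0.682% of all tested genes; 3 of the 9 had an unadjusted p below 0.05, and 2 alternative fits made calls. With library quality weights the 4 globin genes were called lower and Alad and Cpox higher, beside 25.9% of all genes called, and with only the compared groups Hba-a2 alone was called, as lower, beside 4.12%. Without double mutant library 1, Hbb-bs passed, at -5.03 (limma adjusted p = 0.0499), with 7.12% of all genes called. Hbb-bt, at -1.27 ± 0.79 (adjusted p = 0.509), and Alas2, at -1.0 ± 0.78 (adjusted p = 0.624), were nearer to WT. Alad, at 0.75 ± 0.39 (adjusted p = 0.393), was the only 1 of the 9 with all double mutant libraries above WT, as were 16.6% of all genes. Erythroblast markers and red cell membrane genes mostly stood below WT in the same libraries, and erythroid regulators mostly above. Changes were below 0 for 7 of the 10 erythroblast markers and 21 of 24 red cell membrane and late erythroid genes. The medians were -1.33 and -0.95, and limma called none of these genes. An unadjusted p below 0.05 was reached by 1 gene of each list. Of 15 erythroid regulators, 14 had changes above 0 and 1 below, with a median of 0.30. Limma called none of the 15, although 6 had an unadjusted p below 0.05, and called 3 higher without double mutant library 1. The part of all these genes in the globin values was not tested.

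Tet2-/- LSK cells also had low globin values, for 3 of the 4 genes without overlap with WT. Hba-a1 stood at -2.77 ± 1.03 (limma adjusted p = 0.143), Hba-a2 at -2.59 ± 0.87 (adjusted p = 0.123) and Hbb-bs at -2.23 ± 1.29 (adjusted p = 0.295), each with all 3 libraries below WT, beside 12.9% of all tested genes. Alas2 at -0.96 ± 0.78 (adjusted p = 0.449) and Cpox at -1.0 ± 0.83 (adjusted p = 0.46) also had all libraries below WT. Fech at -1.24 ± 0.64 (adjusted p = 0.251) and Hbb-bt at -0.81 ± 0.79 (adjusted p = 0.533) overlapped with WT, and Alad at 0.44 ± 0.39 (adjusted p = 0.485) had all 3 libraries above, beside 21.9% of all genes. Limma called 0 of the 9 genes and 0.23% of all tested genes; 2 had an unadjusted p below 0.05. The fit with library quality weights called Hba-a1, Hba-a2 and Fech lower and Urod higher, beside 50.7% of all genes called. Erythroblast markers and red cell membrane genes mostly stood below WT here as well. Changes were below 0 for 8 of the 10 erythroblast markers, with a median of -1.94. The same held for 20 of 24 red cell membrane and late erythroid genes, with a median of -1.57. Limma called none of them, and 5 and 11 had an unadjusted p below 0.05. The summed levels were not lower: erythroblast markers summed to 299 to 628 CPM in Tet2-/- and 324 to 413 CPM in WT libraries. All listed red cell membrane and late erythroid genes summed to 1881 to 2435 CPM in Tet2-/- and 1873 to 2066 CPM in WT libraries. The part of these genes in the globin values was not tested. Double mutants and Tet2-/- mice were compared with the same 3 WT libraries, so that their distances from WT are not independent.

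In Nras(G12D) mice none of the 9 genes passed the test against WT. Limma called 0 of the 9 genes and 0% of all tested genes, no member had an unadjusted p below 0.05, and no alternative fit called any member. Hba-a2 stood at -1.81 ± 0.87 (limma adjusted p = 0.984), with overlapping libraries. Hbb-bs, at -2.56 ± 1.29 (limma adjusted p = 0.984), had all 3 libraries below WT, as had 6.53% of all genes, while Alad at 0.12 ± 0.39 and Urod at 0.15 ± 0.31 had all 3 above WT, as had 5.52%. Cpox stood at 0.83 ± 0.83 and Fech at 0.01 ± 0.64, both with overlapping libraries.

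Double mutants were set against Tet2-/- mice to ask what Nras(G12D) adds to Tet2 loss. Of the 9 genes, Cpox rose by 2.58 ± 0.83 (limma adjusted p = 0.034), the only call beside the 28.7% of all tested genes called, or 20.1% called higher. Fech stood at 1.64 ± 0.64 (limma adjusted p = 0.0676) with all 3 libraries higher, as 26% of all genes were, and Urod at -0.47 ± 0.31 (adjusted p = 0.261) with all 3 lower, as 27.5% were. Globin genes overlapped between the groups, from -0.29 ± 1.03 for Hba-a1 to -2.16 ± 1.29 for Hbb-bs (limma adjusted p = 0.212). The Cpox call did not stand without Tet2-/- library 1, 2 or 3 (adjusted p = 0.102, 0.0686 and 0.0699) or without double mutant library 2 or 3 (adjusted p = 0.129 and 0.127), at changes of 2.10 to 2.81. Without double mutant library 1 it stood, at 3.42 (limma adjusted p = 0.00911). Fech was called without Tet2-/- library 2, at 2.01 (limma adjusted p = 0.043). The calls over all genes were 70.2% higher, and 45.9% higher after quantile normalization, which moved the median of all genes by -0.37.

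Double mutants against Nras(G12D) mice, and the interaction of both alleles, gave no calls. Limma called 0 of the 9 genes in each, with none at an unadjusted p below 0.05, beside 0.079% and 0% of all tested genes. Against Nras(G12D) mice, Alad at 0.63 ± 0.39 (limma adjusted p = 0.712) had all 3 double mutant libraries higher, as had 6.74% of all genes, and Urod at -0.25 ± 0.31 (adjusted p = 0.856) had all 3 lower, as had 6.87%. The largest interaction terms were Cpox at 1.75 ± 1.18 (limma adjusted p = 0.39) and Fech at 1.63 ± 0.91 (adjusted p = 0.308), and the fit with library quality weights called Urod, Cpox and Fech, beside 42.8% of all genes. Thus the difference between the effect of Nras(G12D) with and without Tet2 did not pass the test for any of the 9 genes.

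Alas1, Uros and Ppox, further enzymes of the pathway, did not pass the test in leukemic libraries against WT. Uros, which closes the porphyrin ring, had 14.2, 99.0 and 56.8 CPM in leukemic libraries, 21.4, 23.7 and 25.3 CPM in double mutant libraries, 42.5, 29.4 and 41.9 CPM in Tet2-/- libraries, 23.0, 25.9 and 36.1 CPM in Nras(G12D) libraries and 31.5, 27.2 and 29.6 CPM in WT libraries. Ppox, which oxidises protoporphyrinogen, had 75.3, 183 and 103.9 CPM in leukemic libraries, 104.1, 80.1 and 91.7 CPM in double mutant libraries, 133.9, 105.5 and 134.4 CPM in Tet2-/- libraries, 57.8, 31.3 and 97.0 CPM in Nras(G12D) libraries and 85.6, 73.4 and 88.2 CPM in WT libraries. Leukemic libraries overlapped with WT for both genes, library 1 lying lowest of the leukemic group. The log2 changes against WT were 0.11 ± 0.21 (SE) for Alas1 (limma adjusted p = 0.724), 0.55 ± 0.49 for Uros (adjusted p = 0.432) and 0.46 ± 0.37 for Ppox (adjusted p = 0.376).

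**Figure D5:**
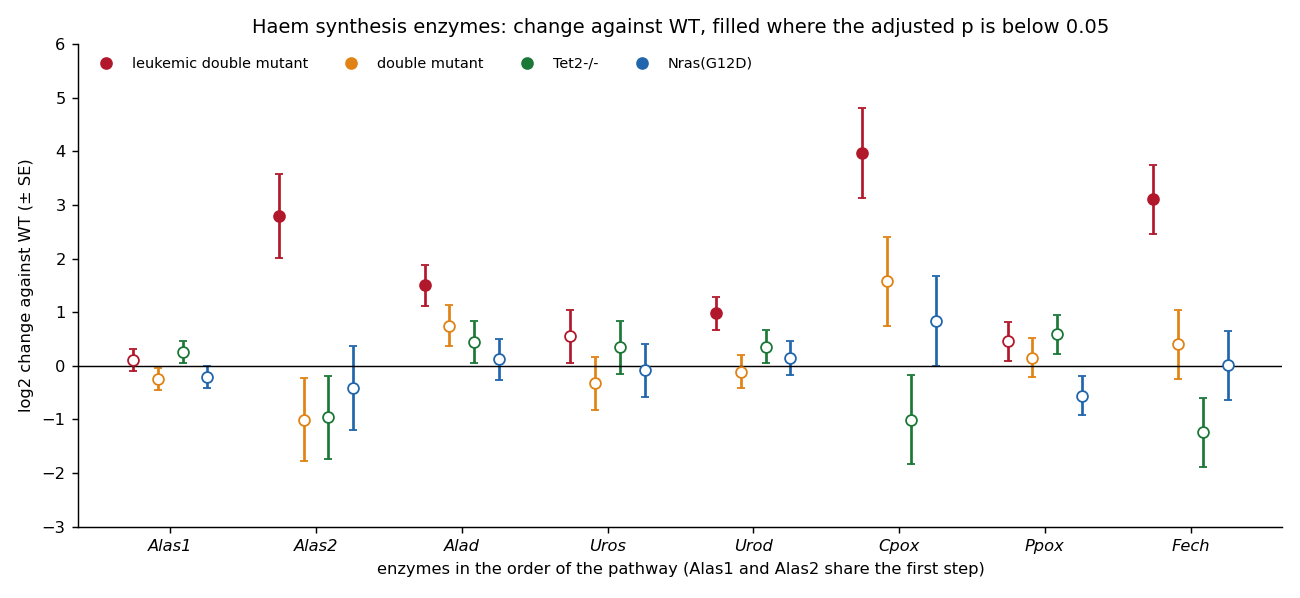
Log2 change from WT of 8 haem synthesis enzymes in pathway order, from Alas1 and Alas2 to Fech, in the 4 mutant groups, with bars of 1 limma standard error. Cpox and Fech lie lowest in Tet2-/- and highest in leukemic libraries, while Alas1, Uros and Ppox lie between 0.11 and 0.55 in leukemic libraries.

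Genes that feed the pathway with iron, glycine and iron-sulphur clusters or carry its intermediates were read in the same libraries. Of 19 tested, 9 rose and none fell in leukemic libraries against WT, with a median of 1.11: they included Glrx5, an iron-sulphur cluster carrier, by 3.76 ± 0.69 (limma adjusted p = 0.00346), Abcb10, a mitochondrial transporter, by 3.11 ± 0.67 (adjusted p = 0.00694), Tmem14c, a porphyrinogen importer, by 1.42 ± 0.33 (adjusted p = 0.00959), and Tfrc, the transferrin receptor, by 2.56 ± 0.60 (adjusted p = 0.00967). Against non-leukemic double mutants 10 rose and none fell. In double mutants against Tet2-/-, 8 rose and none fell, led by the cluster scaffold Iscu at 3.73 ± 0.67 (adjusted p = 0.00472) and Glrx5 at 3.35 ± 0.69 (adjusted p = 0.00535). Against WT the 9 became 4 without leukemic library 2 or 3 or WT library 1, 5 without WT library 3 and 14 without leukemic library 1. Against double mutants the 10 became 3 to 5 without leukemic library 2 or 3 or any double mutant library. Against Tet2-/- the 8 became 3 to 5 without Tet2-/- library 1 or 3 or double mutant library 2 or 3. These counts stand beside 24.7%, 24.3% and 28.7% of all tested genes called.

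Glrx5 shows the steps plainly. It had 48.7, 179 and 168 CPM in leukemic libraries, 11.7, 68.8 and 80.9 CPM in double mutant libraries, 2.89, 4.02 and 5.23 CPM in Tet2-/- libraries, 25.2, 23.0 and 10.3 CPM in Nras(G12D) libraries and 6.52, 15.1 and 6.04 CPM in WT libraries. All Tet2-/- values lay below all others, and leukemic library 1 lay within the double mutant range, as for Cpox.

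Among 11 genes of haem breakdown, haem sensing and iron storage, Hmox1 was called in the double mutants. Hmox1, the haem oxygenase that opens the haem ring, had 13.9, 9.95 and 6.20 CPM in leukemic libraries, 1.69, 3.80 and 2.32 CPM in double mutant libraries, 3.78, 2.02 and 6.13 CPM in Tet2-/- libraries, 5.13, 4.39 and 4.30 CPM in Nras(G12D) libraries and 10.6, 9.31 and 11.6 CPM in WT libraries. It fell by 2.08 in double mutants against WT (SE 0.42, limma adjusted p = 0.0404), the only 1 of the 11 called there beside 0.682% of all genes, and rose by 1.94 ± 0.42 in leukemic libraries against double mutants (adjusted p = 0.00707). The count of genes of this list lower than WT stayed at 1 without double mutant library 1 and was 0 without each of the other 5 libraries. In leukemic libraries against WT 3 of the 11 rose, namely Blvrb, a biliverdin reductase, by 2.95 ± 0.60 (adjusted p = 0.00565), Slc40a1, the iron exporter ferroportin, by 2.38 ± 0.58 (adjusted p = 0.0115), and Blvra by 0.77 ± 0.24 (adjusted p = 0.0324). This share lies near the 24.7% of all tested genes called there, and is above the 10.8% called higher. Against double mutants 6 of the 11 rose and none fell, beside 24.3% of all genes called and 9.04% called higher, and the 6 became 3 without leukemic library 2 and 4 without leukemic library 3 or any double mutant library. Against WT, the count of 3 higher became 1 without leukemic library 2 or WT library 1, and 6 without leukemic library 1.

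Embryonic and non-erythroid globins stayed near 0. The list of 12 names read here also held the globin chaperone Ahsp and the beta-globin names Hbb-b1 and Hbb-b2. Ahsp, Hbb-b1 and Hbb-b2 had no row under those names, and the other 9 genes were measured. None of the 9 passed the filter, and together they summed to 0.240 to 1.84 CPM in leukemic libraries and at most 0.221 CPM in any other library. These sums stand beside 42.7 to 596 CPM for the 4 adult genes in leukemic libraries.

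Erythroid regulators and red cell membrane genes were set beside the globins. Of 15 regulators, 5 rose and 1 fell in leukemic libraries against WT: among them Klf1, a transcription factor of the beta-globin promoter, rose by 4.38 ± 1.09 (limma adjusted p = 0.0124), Epor, the erythropoietin receptor, by 3.52 ± 0.61 (adjusted p = 0.0028) and Gata1 by 2.62 ± 0.51 (adjusted p = 0.00468), while Sox6 fell by 1.37 (adjusted p = 0.014). Of 24 tested red cell membrane and late erythroid genes, 15 rose and none fell, led by Rhag and Sptb at 4.81 and 4.48, and 20 rose against double mutants, beside 10.8% and 9.04% of all tested genes called higher. Against double mutants 3 regulators rose and 2 fell, with a median of -0.28, and the 2 lower calls became 1 without leukemic library 2 or 3 or any double mutant library. The 3 higher calls became 2 without leukemic library 2 or 3 or double mutant library 3. In double mutants against Tet2-/-, 8 of the 15 regulators rose, and 1 of the 24 membrane genes, Sptb, at 2.85 ± 0.89 (limma adjusted p = 0.03), beside 20.1% of all genes called higher. Changes above 0 were found for 13 regulators and 17 membrane genes, and the difference between the lists was not tested. Without leukemic library 2 the counts against WT were 2 higher and 1 lower for regulators and 9 higher for membrane genes, and the count of membrane genes against double mutants was 13. Regulators higher than WT numbered 2 without WT library 1 and 3 without leukemic library 3 or WT library 3. Regulators lower than WT numbered 2 without leukemic library 1 and 0 without leukemic library 3 or WT library 1 or 3. The 8 regulators against Tet2-/- became 4 or 5 without Tet2-/- library 1 or 3 or double mutant library 2 or 3, and the count of membrane genes was 1 without Tet2-/- library 2 or double mutant library 3 and 0 without each of the other 4 libraries.

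The 9 genes did not vary as a single block. Over the 12 non-leukemic libraries, Pearson's r of log2 values was 0.85 between Hba-a1 and Hba-a2, 0.86 between Hba-a1 and Hbb-bs, and 0.64 between Cpox and Fech. It was -0.84 between Hba-a1 and Alad, -0.75 between Alas2 and Alad, and -0.72 between Urod and Fech. The libraries share their group structure and depth differences, so these values describe the table and are given without a test.

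The genes most like each member, by Pearson's r of log2 values over all 15 libraries among 12128 named genes, differed between members. Hba-a1 was closest to Trim10 (r = 0.96, and 0.90 over the 12 non-leukemic libraries), Redrum (0.95 and 0.86) and Sh2d4a (0.93 and 0.92). Alas2 was closest to Plek2 (0.95 and 0.62), Clstn1 (0.94 and 0.53) and Bex4 (0.94 and 0.72), and Hbb-bs to Rnf17 (0.89 and 0.78), Apol8 (0.89 and 0.75) and Tcrg-C1 (0.88 and 0.73). For Alas2 and Alad the likeness rested more on the leukemic libraries, since r for Alad with Fgd6, Hemgn and Arl4a was 0.93, 0.91 and 0.91 over all libraries and 0.69, 0.58 and 0.57 without the leukemic ones. Cpox stayed close to Ssx2ip (0.99 and 0.97), Tnfaip2 (0.99 and 0.98) and Lyrm4 (0.98 and 0.95), and Fech to Cyth3 (0.99 and 0.96), Ubtf (0.99 and 0.96) and Gpsm2 (0.98 and 0.91). Urod was closest to Rfc4 (0.98 and 0.88), Prdx3 (0.97 and 0.89) and Mpp1 (0.97 and 0.87).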

How the data were processed

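Stranded mRNA libraries were made from sorted LSK cells. The deposited values are log2 CPM, in which the authors added 0.5 to each count and scaled each library by a factor. Dividing by each library's step gave whole counts for 100% of values (within 1e-06), from which CPM were computed. Tools named in the submitters' processing notes are limma 3.28.21, edgeR 3.14.0, STAR 2.4.0f1 and bcl2fastq; of the builds mm10 and NCBIM37, neither has a stated role. How reads were counted is not given in the sources used here. These log2 values entered limma 3.58.1 in R 4.3.3 (lmFit, eBayes with trend), all 15 libraries in 5 group means with 10 residual degrees of freedom, 8 contrasts, two-sided, Benjamini-Hochberg adjustment over 13927 genes. The fit was tested on simulated data. Replicates correlated at 0.908 to 0.974. Column N2-3 was taken as Nras(G12D) library 2 and the BMT columns as the leukemic group. Members and lists were chosen with earlier results of these data known. All members are named, up to 4 called genes with the smallest adjusted p of a list, and the 3 genes most correlated with a member; Slc4a1, Trim10 and the library values of Glrx5 and Hmox1 were chosen after values were seen. Alternatives were other scalings, filters, added counts, weights, the mean Y-linked level as a covariate, a replicate block and leaving out each library. Some genes of the lists are not reported here.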

Additional observations from a re-analysis of the deposited data

How the results depend on the processing

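No result reversed. Over the 15 called changes, 210 of 258 alternative values kept the call and 48 lost it. Over the 57 changes not called, 33 of 1036 alternative values passed the threshold. A further 4 had the opposite sign, without a call, and lay more than 1 standard error from the reported change. With library quality weights the count of members called was 4 in Tet2-/- against WT, 6 in double mutant against WT, 3 in double mutant against Tet2-/- and 3 for the interaction, in place of 0, 0, 1 and 0. With only the compared groups in the fit it was 1 in double mutant against WT, 3 in leukemic against WT, 2 in double mutant against Tet2-/- and 2 in leukemic against double mutant, in place of 0, 7, 1 and 7. These fits have fewer libraries to estimate the spread. In double mutant against Tet2-/- the count was 2 with total-count scaling and 0 with no filter and with voom weights. Leaving out 1 library gave 0 to 1 members in double mutant against WT and 2 to 7 in leukemic against WT. It gave 0 to 1 in double mutant against Tet2-/- and 5 to 9 in leukemic against double mutant. In the same order, the shares of all genes called were 0.0431 to 7.12%, 9.74 to 37.7%, 9.03 to 37.6% and 8.51 to 38%. In leukemic against WT, Hba-a1 was not called with total-count scaling (2.77, limma adjusted p = 0.0565), no filter (0.0615), a 5 CPM filter (0.0503) or an added count of 0.1 (0.0503), and Urod was not called with total-count scaling (0.71, adjusted p = 0.0699), quantile normalization (0.68, adjusted p = 0.0802) or no filter (0.0576). Total-count scaling moved the median of all genes by -0.26 in leukemic against WT and -0.23 in leukemic against double mutant. Over all tested genes the calls ranged, outside leave-one-out fits, from 15 to 7058 in Tet2-/- against WT (32 reported), 44 to 3613 in double mutant against WT (95), 5 to 25 in double mutant against Nras(G12D) (11), 2689 to 8334 in leukemic against WT (3443), 2867 to 8793 in double mutant against Tet2-/- (3999), 741 to 7767 in leukemic against double mutant (3382) and 0 to 5961 for the interaction (0). Except for double mutant against Nras(G12D), the highest came with library quality weights. The cause of these differences was not tested.

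Replicate numbers showed no sign of pairing the libraries, though overlapping ranges cannot exclude it. Correlations of deviations ran from -0.346 to 0.294 for 30 same-numbered pairs and -0.411 to 0.468 for 60 others. With the replicate block the count of members called was 2 in double mutant against Tet2-/-, 7 in leukemic against WT and 8 in leukemic against double mutant. Over all genes the block gave 713 calls in Tet2-/- against WT, in place of 32. With the Y-linked level as a covariate, 1 member was called in double mutant against Tet2-/-. In the same fit 7 were called in leukemic against WT and 8 in leukemic against double mutant. Low counts limit Hba-a2, and Hba-a1 and Hbb-bs in double mutant library 3.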
